A study of Caenorhabditis elegans with 2 samples.

Results

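Binding of ZIP-11, a basic leucine zipper (bZIP) transcription factor, was mapped by chromatin immunoprecipitation and sequencing (ChIP-seq), and the regions described here are the reproducible ones that lie far from the starts of protein-coding genes. There were 375 such regions among 97178 nuclear and mitochondrial regions of the pooled ranked peak list, of which 986 nuclear ones met the same reproducibility threshold. The members were selected on measured values: a global irreproducible discovery rate (IDR) of 0.05 or less in the pooled ranked list, no start of a tRNA, snoRNA, snRNA, rRNA, miRNA or spliced leader RNA gene within 250 bp of the summit, and no protein-coding start within 1000 bp. The IDR scores how alike the rank of a peak is between a pair of inputs. Reproducible here means only that a region met this threshold in the pooled list, and not that both replicates had the peak. No ranked peak was found in replicate 1 at 13 members and in replicate 2 at 19. The 2 samples formed 1 group, biological replicates 1 and 2 of whole L4 larvae, 52.5 hours old, grown from starved L1 larvae after bleaching. Both came from strain OP761, which carries wgIs761, a transgene of zip-11 tagged with TY1, EGFP and 3xFLAG plus unc-119(+), in the unc-119 (tm4063) mutant background. Sheared chromatin was pulled down through the GFP tag. Whole larvae pool all tissues, and the tagged protein comes from a transgene, so cell type and natural dose are not resolved. No second condition was measured, and no test was run on these regions: shares are given with 95% Wilson intervals, which cover counting error only.

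bZIP factors hold DNA with a basic helix beside a leucine zipper and usually bind short palindromic words as dimers. Sequence far from gene starts includes satellites, in which a unit is repeated head to tail, and dispersed repeats, of which some derive from tRNA genes. RNA polymerase III finds tRNA genes through the A box and the B box, a pair of elements inside the transcribed sequence, and tRNA pseudogenes and tRNA-derived repeats can keep both. Reads from repeated sequence are hard to place on the genome and can pile up where the assembly holds fewer copies than the animal.

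The first set of sequences is shown because 12 members on 6 chromosomes shared it as a dispersed repeat. Capitals mark the A box word GGNNNAGTG and the B box word GTTCNANNC, both searched on both strands, after the shared sequence had been seen. The sequences run 5′ to 3′ on the strand of these words, from the RefSeq copy of WBcel235, the same assembly as ce11, with positions counted from 1.
Y94H6A.t1 (tRNA pseudogene), chrIV:2740210-2740286, plus strand: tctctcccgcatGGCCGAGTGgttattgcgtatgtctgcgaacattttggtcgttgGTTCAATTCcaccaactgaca
srt-52 intron, chrV:53472-53548, plus strand: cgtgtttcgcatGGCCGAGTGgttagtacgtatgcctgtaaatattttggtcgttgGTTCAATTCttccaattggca
near F52F10.7, chrV:1561373-1561449, plus strand: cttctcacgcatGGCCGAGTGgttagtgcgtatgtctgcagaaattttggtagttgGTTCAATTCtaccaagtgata
near T02E9.6, chrV:11331994-11332070, plus strand: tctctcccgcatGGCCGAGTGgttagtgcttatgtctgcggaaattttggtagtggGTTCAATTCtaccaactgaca
Y50D7A.1 intron, chrIII:302706-302782, plus strand: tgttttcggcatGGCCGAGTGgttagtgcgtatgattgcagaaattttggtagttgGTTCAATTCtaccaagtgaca
near F48F7.5, chrX:13973290-13973366, plus strand: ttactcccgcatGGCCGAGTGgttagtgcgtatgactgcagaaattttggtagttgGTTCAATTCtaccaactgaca
A pair of members outside this family held the same 2 words in another sequence.
near C14C11.7, chrV:5667464-5667540, minus strand: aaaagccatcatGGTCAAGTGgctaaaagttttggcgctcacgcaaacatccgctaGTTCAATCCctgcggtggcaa
near F09E5.7, chrII:5353813-5353889, minus strand: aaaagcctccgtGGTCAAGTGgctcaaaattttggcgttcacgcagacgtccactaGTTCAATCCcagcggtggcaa

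The second set is shown because tandem arrays held the members of highest signal. The last 3 lines are chosen for their words or unit: the cmk-1 and lin-29 introns hold short repeats but fell below the tandem threshold used here. Capitals mark every other repeat unit, cut at the unit length found at the summit, except where stated. All are printed on the plus strand.
near Y7A5A.11, unit of 26 bases, chrX:15810945-15811048: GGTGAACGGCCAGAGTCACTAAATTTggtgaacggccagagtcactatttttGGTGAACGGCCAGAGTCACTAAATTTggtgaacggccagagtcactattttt
near Y69E1A.1, unit of 45 bases, chrIV:10945774-10945908: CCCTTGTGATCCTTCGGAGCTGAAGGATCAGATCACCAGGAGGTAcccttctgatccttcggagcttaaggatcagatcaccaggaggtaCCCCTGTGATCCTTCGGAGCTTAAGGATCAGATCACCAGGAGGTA
near C26H9A.3, unit of 96 bases, chrIV:12638260-12638451: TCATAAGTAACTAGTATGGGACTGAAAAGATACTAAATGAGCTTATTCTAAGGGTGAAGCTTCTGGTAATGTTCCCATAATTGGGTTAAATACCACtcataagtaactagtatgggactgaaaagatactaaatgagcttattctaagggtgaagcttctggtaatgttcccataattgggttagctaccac
in a cluster of arrays between Y59H11AM.1 and catp-7, unit of 20 bases, chrIV:8579612-8579711: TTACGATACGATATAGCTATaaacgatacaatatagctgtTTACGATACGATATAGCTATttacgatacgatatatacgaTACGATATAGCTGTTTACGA
near Y64H9A.1, unit of 27 bases, chrX:5056874-5056981: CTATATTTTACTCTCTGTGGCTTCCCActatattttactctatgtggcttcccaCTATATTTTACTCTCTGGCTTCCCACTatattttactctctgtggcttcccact
cmk-1 intron, unit of 18 bases, chrIV:1831259-1831366: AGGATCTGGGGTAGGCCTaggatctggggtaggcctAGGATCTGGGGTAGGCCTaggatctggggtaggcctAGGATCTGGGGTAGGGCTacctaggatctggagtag
near col-162, unit of 40 bases, chrV:13440457-13440576, capitals for the heat shock element word, TTC, GAA and TTC with 2 bases between each, on either strand: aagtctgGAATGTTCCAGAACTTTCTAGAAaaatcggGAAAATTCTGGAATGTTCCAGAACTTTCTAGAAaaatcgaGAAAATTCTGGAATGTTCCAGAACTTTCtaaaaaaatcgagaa
lin-29 intron, chrII:11928356-11928445, capitals for TTAGGC, the repeat unit of C. elegans telomeres: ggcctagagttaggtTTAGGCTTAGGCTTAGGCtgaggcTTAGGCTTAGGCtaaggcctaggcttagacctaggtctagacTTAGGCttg

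The reproducible far regions were few among the far ranked ones: 375 of 54583 (0.687%) met the threshold, and the other 54208 are the background used throughout. The authors' signal value of a peak, used here only to describe and rank peaks within a list, had a median of 54.8 in members (13.2 to 403.1), against 19.6 in other far ranked regions (2.00 to 75.2). This difference follows from the choice of members and is no result. The members just inside the threshold had −log10 IDR values of 1.3014 to 1.3056 and signals of 26.8 to 53.2, in ZK632.2, daf-16, F48E8.4 and mnr-1 and 983 bp from R10E4.3. The 5 far regions just outside had values of 1.2968 to 1.3004 and signals of 49.0 to 53.9, in hmr-1, wdr-62 and tub-2, 1825 bp from T02H6.11 and 230 bp from C27A7.2. Both sides of the threshold thus overlapped in signal. No list gives read counts, and sequencing depth is unknown.

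Members lay between genes more often than other far ranked regions, and in introns less often. Intergenic summits made up 153 of 375 members (40.8%, 35.9 to 45.8), against 33.01% of the others. Introns held 79 members (21.1%, 17.2 to 25.5), against 31.3%. Coding exons held 93 (24.8%, 20.7 to 29.4), against 27.3%. This share rests on the threshold: it was 4.12% at a global IDR of 0.01 or less, 3.33% in the conservative list's regions, 8% from replicate 2's own ranked list and 8.33% from replicate 1's. Exons without coding sequence or UTR, called other exons here, held 37 (9.87%, 7.24 to 13.3), against 4.79%. UTRs held 13 (3.47%, 2.04 to 5.84), against 3.63%. Among the 292 members of mostly single-copy sequence, described further on, intergenic summits made up 31.8%, introns 22.9% and coding exons 30.5%, so the higher intergenic share came with the repeated members. The median distance to the nearest protein-coding start was 2311 bp in members and 2234 bp in the others.

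**Figure D1:**
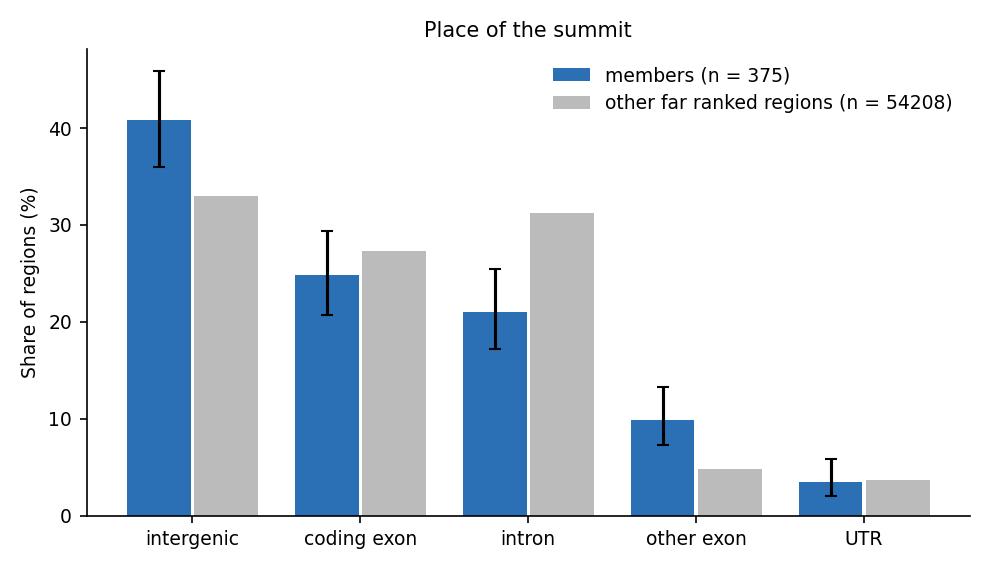
Share of regions, in percent, by the place of the summit, for the 375 members (blue, bars with 95% Wilson intervals) and 54208 other far ranked regions (grey). Intergenic sequence and other exons took a larger share of members, introns a smaller one, and the intervals of coding exons and UTRs held the grey value.

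Repeated sequence was more common in members. In 74 of 375 (19.7%, 16.02 to 24.1), under 50% of the 31-base words within 70 bases of the summit occurred once in the genome, against 5.92% of other far ranked regions. Tandem arrays, in which at least 70% of the bases in a 301-base window matched after a shift of 2 to 100 bases, held 42 members (11.2%, 8.39 to 14.8), against 0.983%. Bases soft-masked in the assembly covered over 50% of the window in 84 members (22.4%, 18.5 to 26.9), against 20.4%, so members did not stand apart in masked sequence as a whole. On the other hand, all 31-base words were found once in 264 members (70.4%, 65.6 to 74.8), against 83.7%. No member shared a 31-base word with mitochondrial DNA (0 of 375, Wilson upper bound 1.01%), against 0.0295% of the others.

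Members were also richer in G and C. The median GC content was 43.3% in members, against 36.9% in other far ranked regions. Within intergenic sequence it was 43.3% against 34.8%, within introns 43.3% against 35.5%, and within coding exons 45.4% against 41.1%. The 292 members of mostly single-copy sequence had a median of 43.6%. Base composition affects fragment yield in sequencing, and its part in the choice of these regions was not tested.

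Members were put in 4 sequence groups after their sequences had been seen: 42 in tandem arrays, 12 in the tRNA-like dispersed family, 29 with other repeated sequence, and 292 mostly single-copy. The median pooled signal was 79.7 in tandem arrays (38.7 to 403.1), 69.3 in the tRNA-like family (51.8 to 122.7), 60.6 in other repeated sequence (13.2 to 174.5) and 53.4 in mostly single-copy members (24.3 to 103.8). All 20 members of highest signal belonged to the first 3 groups. Of these 20, 14 were tandem, 17 intergenic and 10 on chromosome IV. The member in an intron of srt-52, also among the 20, was grouped by its family, although all its 31-base words were found once.

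**Figure D2:**
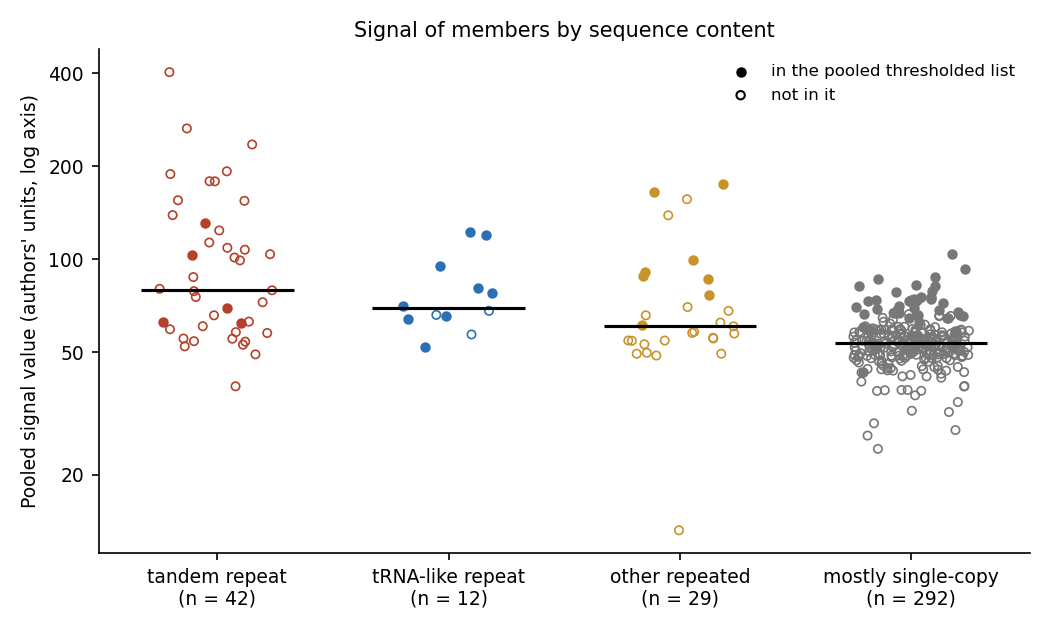
Pooled signal value of each of the 375 members (log axis) by sequence group, with the median as a line. Filled points lie in the authors' pooled thresholded list and open points do not. The tandem arrays reach 403.1. Most points are open in tandem arrays (5 of 42 filled), other repeated sequence (8 of 29) and mostly single-copy members (45 of 292). In the tRNA-like family 9 of 12 are filled. The IDR level of that list, given further on, was met by 30 tandem and 45 mostly single-copy members, so many open points did not reach it.

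The strongest member was a satellite on the X chromosome, the array of 26-base units printed above. It had a pooled signal of 403.1 and a replicate 1 value of 762.0, with no ranked peak in replicate 2. A second tandem member of the same family, chrX:15808059-15808338, had a pooled signal of 192.5, with 195.8 in replicate 1 and 23.0 in replicate 2. The third, chrX:15811057-15811336, had the lowest pooled signal of all members, 13.2, and overlapped the same replicate 1 peak as the first. The array was thus high in one sample and low or without a peak in the other. The third member lay at its edge, below the tandem threshold. The array's nearest gene was the pseudogene Y7A5A.11.

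Of 18 tandem members on chromosome IV, the strongest were high in both samples, and others were low or without a peak in one. The 45-base units near Y69E1A.1 had a pooled signal of 265.0, with 169.7 in replicate 1 and 86.5 in replicate 2. Their family held 7 members, 6 of them on chromosome IV, with signals of 68.0 to 265.0. The 96-base units near C26H9A.3 had a pooled signal of 235.11, with 135.9 and 110.1 in replicates 1 and 2. The 20-base units formed a family of 9 members with signals of 54.1 to 188.5, of which 7 stood within 7364 bp of each other between Y59H11AM.1 and catp-7, and both others were on the X chromosome. In that family replicate 1 or replicate 2 lacked a peak at 1 member each: at chrIV:8576387-8576666 replicate 1 had none and replicate 2 had 54.6, while at chrIV:8573433-8573712 replicate 1 had 94.1 and replicate 2 had none. Tandem members were 18 of 42 on chromosome IV and 10 on X.

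**Figure D3:**
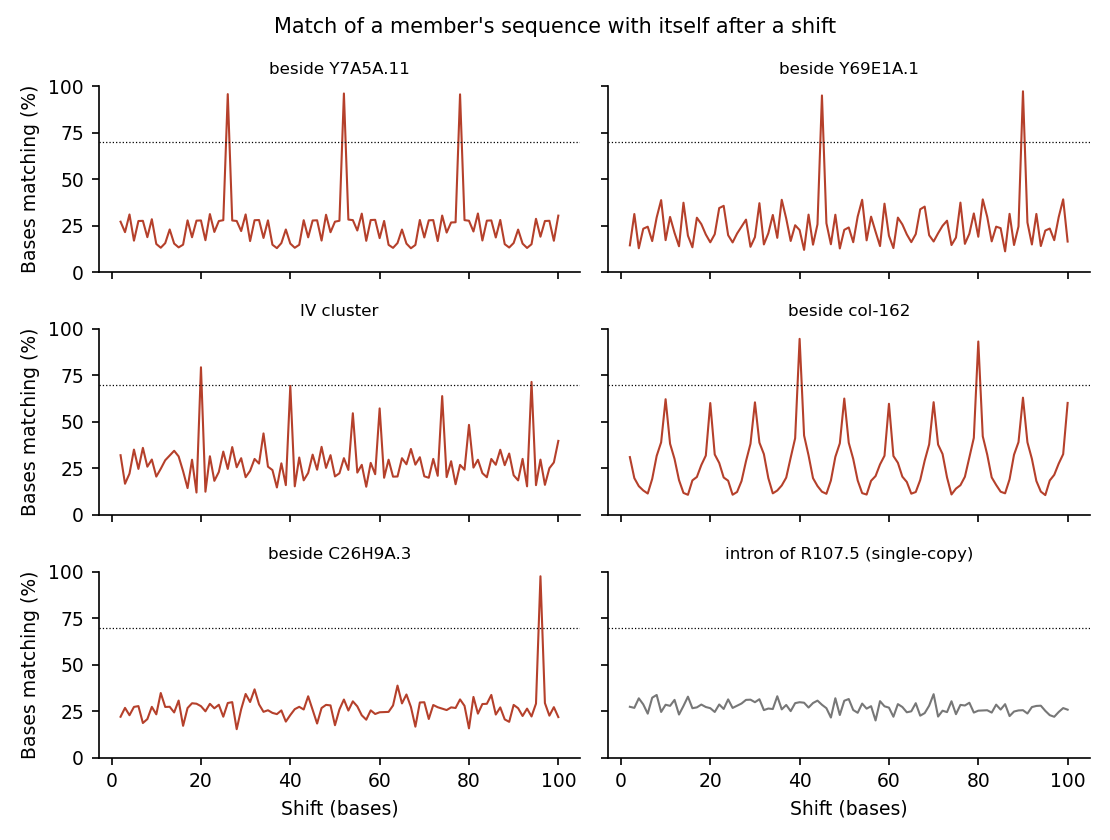
Percent of bases that match when the 301-base window of a member is shifted along itself by 2 to 100 bases. Each array passes the dotted line at 70% at its unit (26, 45, 20, 40 and 96 bases). At multiples of the unit the 26-, 45- and 40-base arrays stay above it, whereas the array of the chromosome IV cluster falls to 69.3% at 40 bases and 57.3% at 60, and the single-copy member in an intron of R107.5 shows none.

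A family with 40-base units held heat shock element words, the sites bound by heat shock factor in many species. Of its 12 members, 6 were tandem, and 7 held the heat shock element word within 140 bases of the summit, with 9 to 31 matches each over both strands. Among all members 13 held this word (3.47%, 2.04 to 5.84), against 1.92% of other far ranked regions, so it was frequent within this family rather than across the set. All 6 tandem members held the word, the strongest near ttm-5, with a signal of 130.9. The highest signal in the family, 156.4 near Y61B8B.3, was at a member that was not tandem and held no such word. The array near col-162, a collagen gene, had 60.6, with 18.4 in replicate 1 and 40.6 in replicate 2.

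Units of 25 or 27 bases formed a further family of 5 members on chromosomes II, III, IV and X, with signals of 72.5 to 178.8. It included the array near Y64H9A.1, with a pooled signal of 113.2, 101.8 in replicate 1 and no peak in replicate 2. The repeat in an intron of cmk-1, below the tandem threshold with a self-match of 56.5% and counted as other repeated sequence, was even between the samples. The gene encodes a calcium/calmodulin-dependent protein kinase. The member had 76.0 in replicate 1, 84.1 in replicate 2 and a pooled signal of 164.5. A family of 4 members, grouped by like sequence, held at least 2 words of the telomere repeat each. They lay in introns of lin-29, unc-51 and kvs-5 and in the noncoding RNA gene tts-1. The lin-29 intron held 14 copies within 140 bases of the summit. Signals in these 4 were 24.3 to 60.6, against a median of 79.7 in tandem arrays. Across all members, 2 or more copies were found in 6 (1.60%, 0.735 to 3.45), against 1.12% of the others. Members with 4 or more copies, not all of them in this family, were 4 (1.07%, 0.416 to 2.71), against 0.583%.

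The tRNA-like family held 12 members, none at an annotated tRNA gene by the choice of members. Its strongest member covered the tRNA pseudogene Y94H6A.t1, with a pooled signal of 122.7, 78.2 in replicate 1 and 40.1 in replicate 2. The member in an intron of srt-52, a chemoreceptor-type gene, had 119.6, with 58.6 and 58.1 in replicates 1 and 2. The member near F52F10.7 had 94.9, with 49.6 and 42.7. These 3 were high in both samples, while the member near str-169, with a pooled signal of 66.0, had no ranked peak in either. The family lay in 8 intergenic sites, 3 introns and 1 other exon.

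Both box words in order, their starts 25 to 80 bases apart, occurred within 140 bases of the summit in 15 members (4%, 2.44 to 6.49), against 0.258% of other far ranked regions. Of these 15, 10 were in the tRNA-like family and 2 were the pair near C14C11.7 and F09E5.7, with pooled signals of 103.8 and 92.7. The remaining members, in ckk-1 and near cya-1 and cel-mir-4811, had 67.1, 66.4 and 57.1. In 13 of the 15 the starts were 43 or 44 bases apart, and in all 15 the A box word began within 60 bases of the summit. Apart from these, the A box word was in 40 further members (10.67%, 7.93 to 14.2), against 7.63%, and the B box word in 39 (10.4%, 7.70 to 13.9), against 10.47%, so without the A box word in order the B box word was as common in the others. Both words were chosen after the shared sequence of the family had been seen, and 10 of the 15 members are that family. The higher share of members with both words thus follows in part from that choice. A match of letters does not show a working element.

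**Figure D4:**
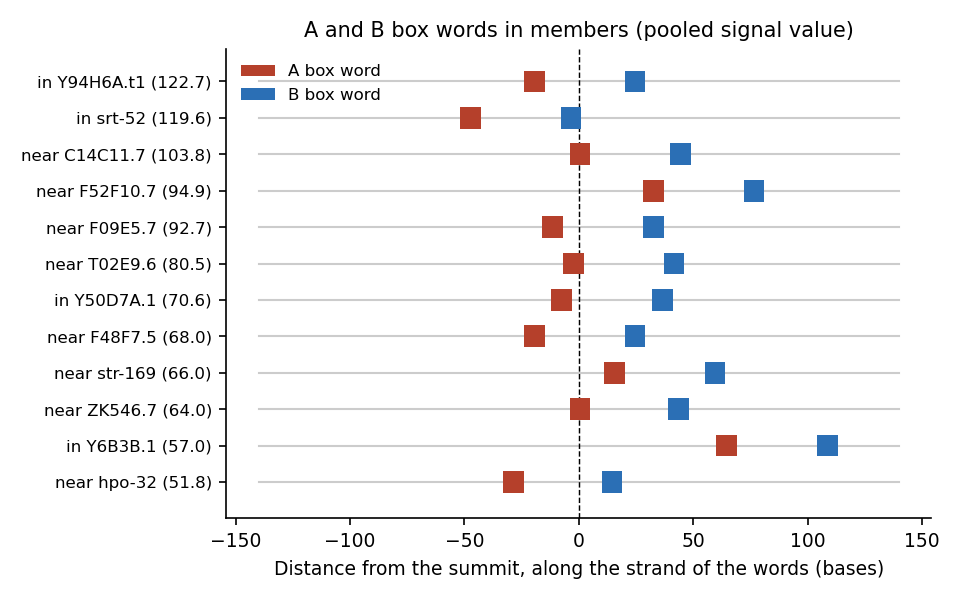
Places of the A box word (red) and the B box word (blue) in the 12 members of the tRNA-like family and the second pair that hold both, in bases from the summit (dashed line) along the strand of the words, ordered by pooled signal (in brackets). The words kept nearly the same spacing while their place relative to the summit ranged from −52 to 60 for the start of the A box word.

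The 17-base word that most of the family shared, in 11 of 12, occurred at 51 places in the nuclear genome, none in an annotated tRNA gene and 1 in a tRNA pseudogene. Of these places 34 lay in a ranked region and 11 in a member, which is 21.6% of all places and 32.4% of the ranked ones. The word was chosen because members of the family share it, so its shares in members follow from that choice and are no result. A tRNA pseudogene of the RefSeq annotation, which lists 209, stood within 250 bp of 1 member (0.267%), against 0.144% of other far ranked regions. CACTCGGC, the reverse complement of the core of the A box in many tRNAs, was within 50 bases of the summit in 11 members (2.93%, 1.65 to 5.18), against 0.148%. This word came from an earlier search of these data, and most of its holders were in the tRNA-like family. Its share in members is therefore no separate result.

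Among the other words searched within 50 bases, those of bZIP sites were no more common in members. TGACGT, the core of the cAMP response element, was in 8 members (2.13%, 1.08 to 4.15), against 3.57% of the others. TGANTCA, the AP-1 word, was in 12 (3.20%, 1.84 to 5.51), against 2.92%, and TGATGNAA in 4 (1.07%, 0.416 to 2.71), against 2.63%. GAGAGAGA was in 11 members (2.93%, 1.65 to 5.18), against 0.814%, and CCGCCC in 19 (5.07%, 3.27 to 7.78), against 1.77%. GGTTCGA, a B box core, was in 7 (1.87%, 0.907 to 3.802), against 0.775%. TTTNCAG, the splice acceptor word, was in 38 (10.1%, 7.47 to 13.6), against 16.8%, and TATAAA in 27 (7.20%, 5.00 to 10.3), against 9.66%.

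The 292 mostly single-copy members had lower and more even signals, with quartiles of 49.0 and 58.6. They lay in 93 intergenic sites, 89 coding exons, 67 introns, 30 other exons and 13 UTRs, so nearly all of the 93 coding exon members were single-copy. The strongest coding exon members were in pals-26 (74.2), ZC247.1 (69.95, a repeated one), spsb-1 (68.2), icl-1 (67.2) and bpnt-1 (65.5). The gene icl-1 encodes the bifunctional glyoxylate cycle enzyme. At icl-1, replicate 1 had 31.7 and replicate 2 had 34.4. No coding exon member passed 74.2, a level that every one of the 20 strongest members exceeded.

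Several genes held more than 1 member. The gene tos-1, known for its regulated splicing, held 5, all in other exons, with pooled signals of 47.0 to 99.0. At its strongest, chrV:9342321-9342600, replicate 1 had 60.7 and replicate 2 had 40.1, and 4 of the 5 were in the pooled thresholded list. The gene gei-4 held 3 members, in a UTR and introns, with signals of 53.95 to 82.6. The noncoding RNA gene C30E1.9 on the X chromosome held 3, with signals of 49.3 to 76.6. Over the set, 83 members had another within 10 kb, in 35 groups. Such counts were not made for other far ranked regions, so they do not show that members cluster.

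Gene groups were counted by the host gene or, between genes, the nearest one, piRNA genes left out. Chemoreceptor genes of the str, srh, sri, srw and srx families had 7 members (1.87%, 0.907 to 3.802), against 1.06% of other far ranked regions, led by str-169 (66.0), srw-85 (65.7), str-222 (58.9) and srw-48 (57.3). Genes with col, rol, sqt or dpy symbols had 2 (0.533%), against 0.4999%, col-162 (60.6) and rol-1 (48.6). This group was counted by symbol only, so it is not a count of collagen genes alone. Vitellogenin, heat shock, C-type lectin, nuclear hormone receptor and F-box genes had 1 each: vit-6 (52.9), hsp-110 (53.9), clec-187 (56.8), nhr-88 (62.7) and fbxa-28 (103.7, the array of the 25-base unit). A single member is 0.267%, and the shares of the others in these groups were 0.0683%, 0.0314%, 0.636%, 1.21% and 0.535%. Histone, major sperm protein, ribosomal protein, actin and myosin, and ubiquitin genes had 0 of 375, a Wilson upper bound of 1.01% each, and were also rare among the others, at 0.0074% to 0.118%. Noncoding RNA genes were the host or nearest gene of 53 (14.1%, 11.0 to 18.02), against 10.5%, pseudogenes of 25 (6.67%, 4.56 to 9.66), against 7.69%, and lincRNA genes of 5 (1.33%, 0.571 to 3.08), against 0.856%. The signal recognition particle RNA genes srpr-2.1 and srpr-1.2 held members of 86.5 and 54.5.

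Nearly all members were ranked in both samples, but few were in either sample's own thresholded list. Of 375 members, 344 (91.7%, 88.5 to 94.1) had a ranked peak in both samples, 13 had none in replicate 1 and 19 had none in replicate 2. Any overlap counted, and the overlapping sample peak of highest signal gave the value, so it can be the peak of a neighbouring region. Replicate 1 had a ranked peak at 362 members and at 23305 of the 54208 other far ranked regions. Replicate 2 had one at 356 members and at 23169 of the others. Members were chosen on a list made from both samples, so this difference is no result. Only 5 members (1.33%, 0.571 to 3.08) were in the thresholded lists of both samples, and 346 (92.3%, 89.1 to 94.6) were in neither. Absence from these lists is not always a high IDR: 43 members had a peak at a global IDR of 0.01 or less in replicate 1's own ranked list and 24 of them, all of repeated sequence, were not in its thresholded list, and in replicate 2 this held for 11 of 26. The 5 in both were near duo-3 and ttm-5, in introns of cmk-1 and srt-52, and near F09E5.7. In the second ranked list of the series, the one that goes with the conservative list, 204 members (54.4%, 49.3 to 59.4) reached a global IDR of 0.05. All these lists share reads with the pooled list, so the counts describe the members and do not test them.

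The sequence groups were unlike in how the samples compared. Replicate 1 had the higher value in 27 of 35 tandem members with a peak in both (77.1%), in 8 of 11 of the tRNA-like family, in 13 of 27 with other repeated sequence and in 149 of 271 mostly single-copy members (55.0%). The median of replicate 1 over replicate 2 was 1.42 in tandem members, 1.16 in the tRNA-like family, 0.904 in other repeated sequence and 1.08 in mostly single-copy members. Neighbouring members, such as the cluster of arrays on chromosome IV, were counted separately here, so the counts are not of independent sites. The scales of the 2 lists may differ, and this was not tested.

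**Figure D5:**
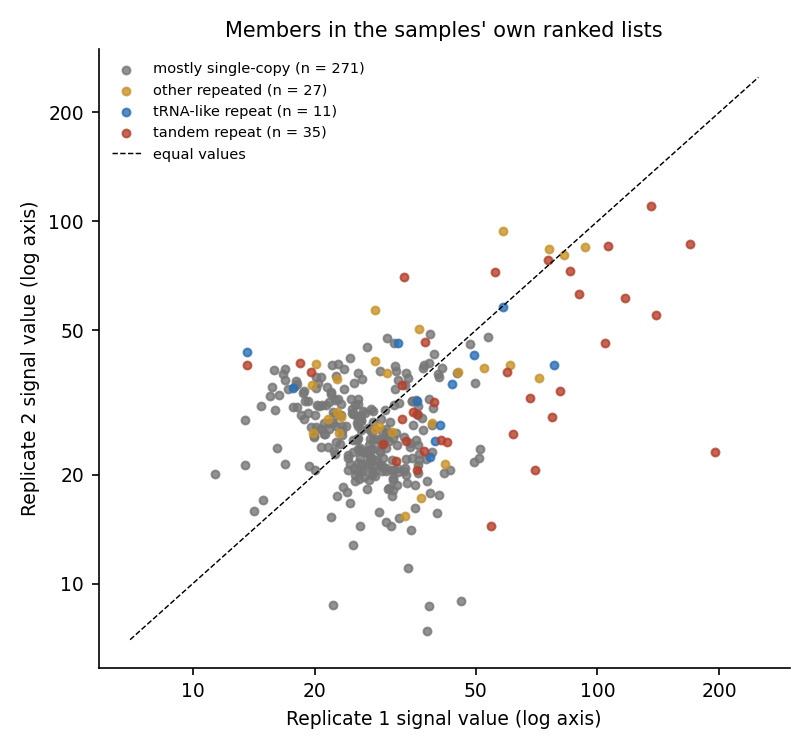
Signal value of each of the 344 members with a ranked peak in both samples, replicate 1 across and replicate 2 up (both log axes), coloured by sequence group, with a dashed line at equal values. Single-copy members crowd between about 20 and 50 in both samples, and tandem members spread to the right of the line.

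The authors' thresholded list left out most of the tandem arrays. Of 396 peaks of the pooled ranked list at a global IDR of 0.01 or less, 364 were in the pooled thresholded list, which holds no other peaks, and 32 were not. Of these 32, 30 lay in members, and all 30 of those members had repeated sequence, 25 of them tandem. By sequence group, 25 of 30 tandem members at this level were missing from the thresholded list, 5 of 13 with other repeated sequence, 0 of 9 in the tRNA-like family and 0 of 45 mostly single-copy. The 7 members of highest signal were among the missing. In the second ranked list, 28 of 357 peaks at this level were missing from the conservative list, 22 of them in members. The deposited notes name 1 further file for the thresholded lists that they do not describe; its part in this was not tested.

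The genes of the transgene had no member within 5 kb. At zip-11, on chromosome IV, no peak of the pooled ranked list lay closer than 12550 bp before its first base or 32574 bp after its last, in order of coordinates. Whether peaks there were removed before the lists were made is not known here, so the empty stretch does not show a lack of binding. At unc-119, on chromosome III, 19 ranked peaks lay within 5 kb, with signals up to 35.2 and a −log10 IDR of at most 0.478.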

How the data were processed

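ChIP-seq peak lists of 2 samples were used as the authors deposited them on ce11, per the labels; no aligner or peak caller is named in those sources. The deposited signal value of each peak was used as given, on a scale that differs between lists, and was not read as a fold enrichment. The authors' ranked lists give −log10 of the global IDR, and a deposited score column entered no result. The 8 columns with the inputs' signals in 4 ranked lists were not used. Overlapping peaks were joined and the summit of highest signal kept. Annotation was Ensembl release 115; 2773 of 2811 genes without a symbol were named from RefSeq. Repeated sequence was measured from 31-base words of WBcel235 within 70 bases of the summit, like sequences were grouped by BLAST 2.17.0 (281-base windows, E of 1e-05 or less), and scripts were checked on simulated sequence. Python 3.11.15 was used. The members, words and gene groups were chosen with earlier results of these data known. The text names in part the 20 members of highest signal and the 5 of highest signal per class. It also names 5 on each side of the threshold and up to 4 per gene group, the latter not for every group. Box, heat shock and telomere words, families, and genes with several members were chosen after their values were seen. Alternatives varied the IDR level, windows, joining, word range, repeat measure, class rule and samples.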

Additional observations from a re-analysis of the deposited data

How the results depend on the processing

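No paired analysis was possible because the samples form 1 group. Of 71 values under alternatives, 28 stayed within 1.5 times the count of members or within the 95% interval of the share or median, and the cause of the other moves was not tested. At a global IDR of 0.01 or less, the order is members, coding exon, intergenic, repeated, both own lists, median distance: 97, 4.12%, 62.9%, 47.4%, 5.15% and 2676 bp. At 0.001 or less these were 26, 0%, 84.6%, 92.3%, 15.4% and 3671 bp, and introns held 7.69%. The conservative list's regions gave 60 members, 3.33% in coding exons, 26.7% in introns, 26.7% repeated and 8.33% in both own lists. A coding window of 2000 bp gave 223 members, 17.04% in coding exons, 50.7% intergenic, 26.01% repeated and 3294 bp, and a window of 500 bp gave a median of 1762 bp. Class by any overlap gave 33.3% in coding exons and 13.3% in introns. Repeated sequence at under 90% of words found once gave 25.9%. With 1 sample's own ranked list at the same threshold, the range was 50 to 108 members, 8% to 8.33% in coding exons, 12% to 12.96% in introns, 60% to 66.7% intergenic, 46% to 50.9% repeated, 4.63% to 10% in both own lists and 2676 to 2762 bp. Those sets held 44 of the 375 members with replicate 2 alone and 74 with replicate 1 alone. Among mostly single-copy members, an alternative chosen after seeing the data, coding exons held 30.5% and intergenic sequence 31.8%, against 33.01% of other far ranked regions. Of 90 word shares under alternatives, 60 stayed within their intervals. Depth is unknown, so no limit from it can be given.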
